A study of Mus musculus with 2 samples.

Results

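Imprinted genes were examined in the liver of the mouse embryo as a set of 39 genes chosen by name because each is known to be expressed wholly or mainly from 1 parental allele in at least some tissues. Of the 39 genes, 38 had a row in the gene tables of both libraries, out of 43346 genes in all, and Peg13 was not analysed here. RNA longer than 200 nt was sequenced as total RNA from whole liver of healthy B6NCrl embryos at embryonic day 15.5. The design was 1 group of 2 biological replicates, pooled from the livers of 78 embryos of both sexes in replicate 1 and of 62 in replicate 2, and each was made from 10 ng of RNA with spike-ins. All embryos were of the same strain and no allele was called, so the parental allele of each gene is given from prior knowledge and was not measured.

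Imprinted genes carry parental marks of DNA methylation that are set in the germ line and kept after fertilisation, and these marks silence one allele of the gene or of a nearby regulator. Most lie in clusters in which a protein-coding gene of one allele sits beside a noncoding RNA of the other. Many regulate fetal growth: the paternally expressed Igf2 promotes it, and the maternally expressed Igf2r, Grb10 and Cdkn1c restrain it. The fetal liver is among the organs in which many imprinted genes are active before birth, and much of that activity is lost later.

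Levels are in TPM, a unit that accounts for the length of each RNA, after removal of the spike-ins. The depth was 34039426 expected counts in replicate 1 and 44200838 in replicate 2, so that 3 counts, the limit that a count of 0 allows, correspond to 0.0881 and 0.0679 counts per 1000000 (CPM). Intervals cover counting error only, since reads without molecular identifiers are not independent molecules, and with n = 2 an SD measures only the spread between these pools. The tissue label was checked against marker genes. All 14 hepatocyte markers and all 11 measured red cell markers exceeded 1 TPM in both libraries. Markers of neighbouring tissues were also found: 12 muscle genes summed to 287 TPM in replicate 1 and 422 TPM in replicate 2, and 12 pancreas genes to 68.9 and 17.1 TPM. In whole tissue, fewer cells of a type and less RNA per cell cannot be told apart.

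A few promoter sequences are shown first, because the transcripts of 3 members were assigned mainly to some of their several start sites. They are the 250 bases before RefSeq starts (GRCm38.p6), read 5′ to 3′ on the strand of the gene. For Igf2 and Grb10 each CpG is in capitals. For Mest the capitals mark TGCCGC or its reverse complement GCGGCA, the short motif recognised by ZFP57, a zinc finger protein that protects imprints when the motif is methylated.
Igf2, upstream start, chr7:142666817-142667066, minus strand: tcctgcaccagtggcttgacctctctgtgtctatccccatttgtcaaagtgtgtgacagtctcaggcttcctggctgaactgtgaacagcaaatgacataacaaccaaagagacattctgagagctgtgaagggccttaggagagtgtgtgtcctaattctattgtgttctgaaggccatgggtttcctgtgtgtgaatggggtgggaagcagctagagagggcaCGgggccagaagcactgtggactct
Igf2, middle start, chr7:142661272-142661521, minus strand: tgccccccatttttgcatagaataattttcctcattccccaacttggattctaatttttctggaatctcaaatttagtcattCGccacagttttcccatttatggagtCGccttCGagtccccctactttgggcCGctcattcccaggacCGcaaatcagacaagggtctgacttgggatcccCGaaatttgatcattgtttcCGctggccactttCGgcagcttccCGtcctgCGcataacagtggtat
Igf2, downstream start, chr7:142657497-142657746, minus strand: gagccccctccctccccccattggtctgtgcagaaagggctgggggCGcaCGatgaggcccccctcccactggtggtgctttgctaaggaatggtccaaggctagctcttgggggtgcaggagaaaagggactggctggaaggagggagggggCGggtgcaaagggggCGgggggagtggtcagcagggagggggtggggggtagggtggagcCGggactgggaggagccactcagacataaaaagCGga
Grb10, upstream start, chr11:12037421-12037670, minus strand: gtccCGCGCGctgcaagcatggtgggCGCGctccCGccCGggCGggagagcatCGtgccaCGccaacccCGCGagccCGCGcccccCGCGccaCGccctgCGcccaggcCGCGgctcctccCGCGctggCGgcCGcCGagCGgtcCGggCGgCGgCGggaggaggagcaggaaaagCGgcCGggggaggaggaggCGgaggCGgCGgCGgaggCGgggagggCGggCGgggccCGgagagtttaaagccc
Grb10, downstream start, chr11:12027972-12028221, minus strand: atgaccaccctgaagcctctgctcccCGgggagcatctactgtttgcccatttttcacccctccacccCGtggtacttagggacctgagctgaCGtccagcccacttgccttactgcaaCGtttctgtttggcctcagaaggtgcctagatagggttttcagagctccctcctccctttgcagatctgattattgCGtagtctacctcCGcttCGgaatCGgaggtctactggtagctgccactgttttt
Mest, upstream start, chr6:30733256-30733505, plus strand: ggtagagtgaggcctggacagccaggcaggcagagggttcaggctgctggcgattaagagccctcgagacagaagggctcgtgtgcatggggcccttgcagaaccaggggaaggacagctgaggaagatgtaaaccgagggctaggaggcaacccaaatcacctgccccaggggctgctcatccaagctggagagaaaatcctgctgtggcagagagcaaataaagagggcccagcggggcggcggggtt
Mest, downstream start, chr6:30737800-30738049, plus strand: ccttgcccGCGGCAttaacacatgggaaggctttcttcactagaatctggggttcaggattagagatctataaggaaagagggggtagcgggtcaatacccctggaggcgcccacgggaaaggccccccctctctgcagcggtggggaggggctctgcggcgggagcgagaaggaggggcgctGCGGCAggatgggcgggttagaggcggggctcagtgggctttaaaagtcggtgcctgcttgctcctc
The Igf2 stretches held 1, 10 and 6 CpGs in the order shown. A further RefSeq stretch of Igf2, chr7:142658805-142659054, is not shown and held 22. The Grb10 stretches held 40 and 8. The motif was absent from the upstream Mest stretch and occurred 2 times in the downstream one.

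Most imprinted genes were expressed, and a few were abundant. At 1 TPM or more in both libraries stood 29 of the 38 measured members, against 28.4% of all genes. Of the 32 protein-coding members, 24 reached that level, against 53.1% of all protein-coding genes. At 10 TPM or more were 20 members, against 14.3% of all genes, and at 100 TPM or more were 8, against 2.29%. These 8 were Igf2, H19, Dlk1, Gnas, Meg3, Mest, Grb10 and Cdkn1c. The members summed to 3070 TPM in replicate 1 and 2849 TPM in replicate 2 (mean 2960 ± 156, SD, n = 2), and the 5 highest held 70.2% of the sum. Of the 37 pairs of neighbours in the order of mean levels, 24 had library values that did not overlap. The 13 that overlapped included Slc38a4 with Rian, Phlda2 with Plagl1, and Nnat, Slc22a18, Igf2r and Ndn in sequence. Of the 28 pairs in which both genes reached 1 TPM in both libraries, 8 overlapped. Some of the lower pairs rest on few counts.

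**Figure D1:**
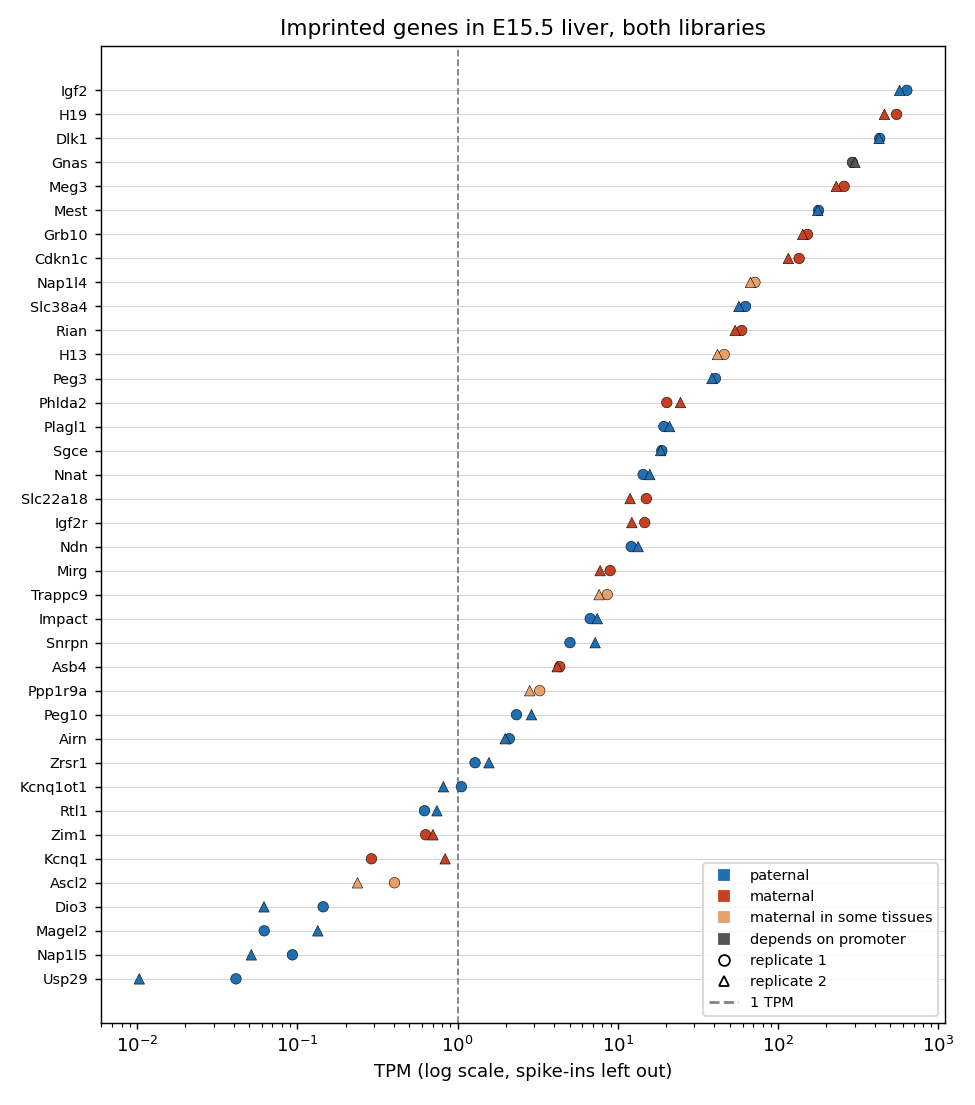
TPM of the 38 measured imprinted genes on a log axis, with circles for replicate 1, triangles for replicate 2, colours for the allele known to be expressed and a dashed line at 1 TPM. Igf2, H19 and Dlk1 lead, and the 9 genes at the bottom fell below 1 TPM in at least 1 library.

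Genes of both parental alleles were abundant. The 20 measured genes known as paternally expressed summed to 1397 ± 48.5 TPM and the 12 known as maternally expressed to 1141 ± 108 TPM (SD, n = 2). Another 5 genes that are maternally expressed in some tissues only summed to 125 ± 7.28 TPM. Gnas, whose expressed allele depends on promoter and tissue, stood apart at 296 ± 7.67 TPM. With Gnas left out, paternally expressed genes held 51.5% of the sum in replicate 1 and 53.5% in replicate 2. The share was 38.6% without Igf2, the highest member, but with H19, the highest maternally expressed gene, kept. Leaving out H19, alone or with Igf2, was not tried. By expected counts, in which long RNAs weigh more, the share was 48.4%. Chromosome 7 held 15 of the measured members and 47.3% of the sum, and the 6 members on chromosome 12 held 25.0%.

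Igf2, the main fetal growth factor of the insulin-like family (ENSMUSG00000048583; chromosome 7, 142650766 to 142666816, minus strand), was the highest member. It reached 635 TPM in replicate 1 and 573 TPM in replicate 2, and ranked 125 of all 43346 genes. Its maternally expressed neighbour H19, a noncoding RNA that hosts a microRNA (chromosome 7, 142575529 to 142578143), followed at 548 and 460.3 TPM. Igf2 exceeded H19 per length in both libraries, by 1.16-fold and 1.24-fold. By read number the order was the other way: H19 had 781 and 672 CPM, and Igf2 had 617 and 583 CPM. The lengths to which these counts were divided differed, on average 1161 nt for Igf2 and 1656 nt for H19 in replicate 1. The order of this pair therefore depends on which transcripts the reads were assigned to.

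The reads of Igf2 were assigned to several starts and splice forms. Igf2-203, a 650 nt form from the upstream start shown above, held 39.95% of the TPM of the gene in replicate 1 and 40.6% in replicate 2. Igf2-208, annotated as a processed transcript of 958 nt that starts far downstream at position 142653030, held 35.3% and 32.8%. The starts near the downstream stretch (142657466 to 142657496) held 12.4% and 12.9%, and those near the middle stretch (142661205 to 142661305) held 2.44% and 2.75%. By expected counts the order changed, with 27.4% for Igf2-208, 26.5% for Igf2-202 from the downstream start and 20.8% for Igf2-203 (means of 2 libraries). Igf2-205, a 4722 nt form that starts at 142659489, held 17.8% of the counts and 4.10% of the TPM (means of 2 libraries). Several of these forms are short fragments of the gene, and the antisense gene Igf2os overlaps the upstream starts. H19 had no single leading form: H19-205 led in replicate 1 with 37.1%, and H19-203 led in replicate 2 with 34.6%.

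**Figure D2:**
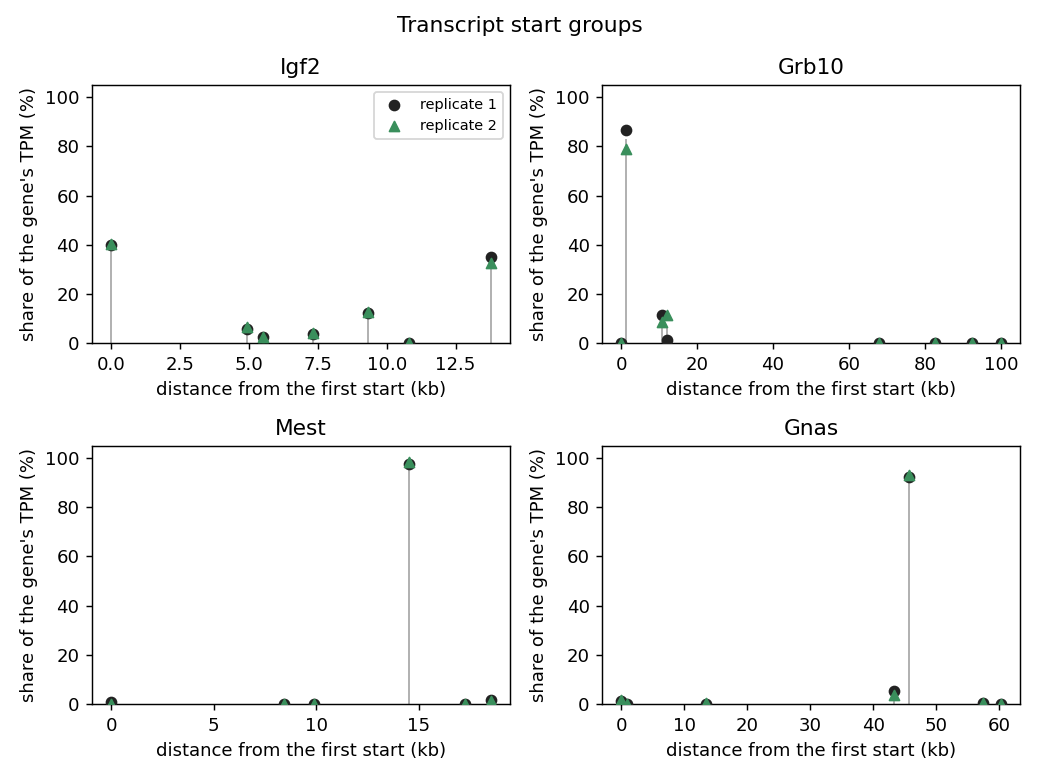
Share of the TPM of a gene by group of transcript starts, for Igf2, Grb10, Mest and Gnas, against the distance from the most upstream start in kb, with circles for replicate 1 and triangles for replicate 2. Mest and Gnas each had 1 dominant group of starts, while Igf2 was divided mainly between its first and last.

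The cluster on chromosome 12 held both abundant and nearly silent members. Dlk1, a membrane protein of the Notch ligand family that marks hepatoblasts (ENSMUSG00000040856; chromosome 12, 109452823 to 109463336), reached 430.1 TPM in replicate 1 and 426 TPM in replicate 2. Meg3, the noncoding RNA expressed from the maternal allele (chromosome 12, 109541001 to 109571726), reached 258 and 231 TPM. Dlk1 exceeded Meg3 by 1.67-fold and 1.85-fold, with no overlap between the genes. Rian, the host of many small nucleolar RNAs, stood at 59.2 and 53.9 TPM, and Mirg, a microRNA host farther along the same strand, at 8.95 and 7.75 TPM. The maternally expressed RNAs thus fell in level with their order along the chromosome, by 4.36-fold and 4.28-fold from Meg3 to Rian and by 6.61-fold and 6.95-fold from Rian to Mirg. The paternally expressed Rtl1, a retrotransposon-derived gene needed in placental vessels, stood at 0.621 and 0.743 TPM. Dio3, which inactivates thyroid hormone, had 6 counts in replicate 1 and 5 in replicate 2. The leading form was Dlk1-205 with 64.2% and 62.8% of the TPM of its gene, Meg3-205 with 72.2% and 73.0%, Rian-202 with 36.2% and 39.0%, and Mirg-207 with 42.2% and 36.4%.

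MicroRNA genes inside these loci could not be read from the tables. Of 23 measured small RNA genes, 22 had an effective length of 0 and a count of 0 in both libraries. RNA under 200 nt was not part of the libraries per the labels, and the levels of these genes are unknown.

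The Kcnq1 cluster on chromosome 7 was led by a growth-restraining gene of the maternal allele. Cdkn1c, an inhibitor of cyclin-dependent kinases (ENSMUSG00000037664; chromosome 7, 143458339 to 143461050), reached 135 TPM in replicate 1 and 116 TPM in replicate 2. Nap1l4, a histone chaperone gene at the edge of the cluster that is imprinted in some tissues, followed at 71.6 and 67.2 TPM. Phlda2, known for restraining placental growth, stood at 20.2 and 24.6 TPM, and Slc22a18, a membrane transporter, at 15.1 and 11.9 TPM. Ascl2, a trophoblast transcription factor, was near the bottom at 0.404 and 0.237 TPM. The placental genes of the cluster thus differed in level, Phlda2 lying above 1 TPM and Ascl2 below it.

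Kcnq1ot1, the long noncoding RNA of the paternal allele that silences the cluster, gave 2782 counts in replicate 1 and 2903 in replicate 2. Over its annotated 84395 nt this came to 1.06 and 0.815 TPM. Per length, Cdkn1c exceeded it by 128-fold and 142-fold. Kcnq1, the potassium channel gene that Kcnq1ot1 overlaps on the opposite strand, had only 27 and 43 counts. Its TPM of 0.290 and 0.836 differed by 2.88-fold between libraries, while its CPM differed by 1.24-fold, with a 95% Clopper-Pearson interval of 0.741 to 2.06. The gap came with a change in assigned length from 3029 to 1319 nt: the 282 nt form Kcnq1-207 had 4 counts in replicate 2 and 0 in replicate 1. The kit whose manual the labels link does not mark strand, so reads of Kcnq1 and Kcnq1ot1 in shared sequence cannot be told apart. The same holds for Igf2r and Airn, Gnas and Nespas, Nnat and Blcap, Zrsr1 and Commd1, Nap1l5 and Herc3, and Mest and Copg2.

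Another pair of maternally expressed genes that restrain growth signalling differed in level. Grb10, an adaptor that dampens insulin and insulin-like growth factor receptors (ENSMUSG00000020176; chromosome 11, 11930508 to 12038683), reached 152 TPM in replicate 1 and 142 TPM in replicate 2. Igf2r, the receptor that carries Igf2 to the lysosome (ENSMUSG00000023830; chromosome 17, 12682406 to 12769664), stood at 14.7 and 12.2 TPM. Grb10 is known to be expressed from the maternal allele through an upstream promoter in most tissues and from the paternal allele through downstream promoters in neurons. Grb10-201, from the upstream start at 12037401, held 86.9% of its TPM in replicate 1 and 79.0% in replicate 2. Grb10-203, from the downstream start at 12027971, held 11.4% and 8.78%. The 430 nt form Grb10-207 held 1.03% and 11.5%, but only 0.0705% and 0.870% of the counts, so its share rests on its short length. Airn, the antisense RNA of the paternal allele that silences Igf2r, stood at 2.10 and 1.98 TPM from 61 and 80 counts. Its rows cover spliced forms of 1030 and 1058 nt on average, within a gene annotated from 12741311 to 12860136, so most of the unspliced RNA is outside them. By these rows Igf2r exceeded Airn by 6.995-fold and 6.17-fold.

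Mest, a gene of the hydrolase fold family expressed from the paternal allele (ENSMUSG00000051855; chromosome 6, 30723547 to 30748465), varied little between the libraries. It reached 179 TPM in replicate 1 and 177 TPM in replicate 2. Nearly all of it came from the downstream start shown above: starts from 30738050 to 30738055 held 97.5% and 98.4% of its TPM. The group of starts at 30733454 to 30733506, which includes that of the upstream stretch, was at 0 in both libraries. Mest-211 alone held 93.4% and 94.8%.

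Gnas, the gene of the stimulatory G protein alpha subunit (ENSMUSG00000027523; chromosome 2, 174284320 to 174346744), reached 291 TPM in replicate 1 and 302 TPM in replicate 2. Its alternative first exons are imprinted in different directions. The most downstream of the main groups of starts, at 174330006 to 174330287, held 92.4% and 93.0% of its TPM, with the forms Gnas-208, Gnas-206 and Gnas-207 from it. A group at 174327570 to 174328023 held 5.29% and 3.88%. The most upstream groups were low, with 1.37% and 1.83% for the start at 174284320. Starts at 174297859 held 0.296% and 0.305%. Nespas, an antisense RNA in the locus, stood at 2.35 and 2.46 TPM.

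The other paternally expressed genes spanned a wide range. Slc38a4, an amino acid transporter of liver and placenta (chromosome 15, 96994820 to 97055956), stood at 62.6 TPM in replicate 1 and 56.9 TPM in replicate 2. Peg3, a zinc finger protein gene (chromosome 7, 6703892 to 6730431), stood at 40.6 and 38.6 TPM. Plagl1, a zinc finger transcription factor, reached 19.4 and 21.02 TPM. Thus 1 transporter and 2 zinc finger genes followed the leading growth genes. The neighbours of Peg3 were far lower. Zim1, another zinc finger gene but one known as maternally expressed, stood at 0.632 and 0.702 TPM. Peg3 exceeded Zim1 by 64.3-fold and 55.0-fold. Usp29, which shares a promoter region with Peg3 on the opposite strand, had 3 counts in replicate 1 and 1 in replicate 2. Its only measured form, Usp29-201, starts at 6961160, away from that region, so transcripts from the shared promoter were not compared. Peg3 counts were 3420 times those of Usp29 in replicate 1 (95% interval 1170 to 16588) and 12097 times in replicate 2 (2171 to 477845).

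On chromosome 6, Sgce, a sarcoglycan gene, stood at 18.8 TPM in replicate 1 and 18.5 TPM in replicate 2. Peg10, a retrotransposon-derived gene needed in the placenta and transcribed from the same promoter region in the other direction, was at 2.33 and 2.89 TPM. Sgce exceeded Peg10 by 8.07-fold and 6.40-fold. Asb4, of the SOCS box family, and Ppp1r9a, which encodes neurabin, lie farther along and were also low, at 4.34 and 4.18 TPM and at 3.25 and 2.82 TPM.

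Of the genes of the Prader-Willi region on chromosome 7, known for roles in neurons, Ndn (necdin) stood at 12.1 TPM in replicate 1 and 13.4 TPM in replicate 2. Snrpn, which encodes a splicing protein, stood at 5.02 and 7.22 TPM. Magel2 had 9 and 26 counts, or 0.0621 and 0.134 TPM. The 3 genes therefore ranged from clearly detected to nearly absent. Snurf, which shares transcripts with Snrpn, could not be separated from it. Of 6 markers of neurons, 2 reached 1 TPM in both libraries, and the 6 summed to 5.14 and 6.94 TPM.

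Among the remaining members, Nnat, a small membrane protein gene, stood at 14.4 TPM in replicate 1 and 15.8 TPM in replicate 2. H13, the signal peptide peptidase gene, was at 46.1 and 41.8 TPM, and Trappc9, a vesicle trafficking gene, at 8.59 and 7.64 TPM. Impact, which restrains a kinase of amino acid starvation, was at 6.72 and 7.43 TPM. H13 was the only one of these 4 above 20 TPM. Zrsr1, a retrogene of a splicing factor family, stood at 1.28 and 1.57 TPM inside its host Commd1, which was at 142 and 155 TPM. Nap1l5, a retrogene of the nucleosome assembly family, had 5 and 4 counts inside Herc3, which was at 2.02 and 2.22 TPM. Both retrogenes were below their hosts, and both host genes were detected.

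**Figure D3:**
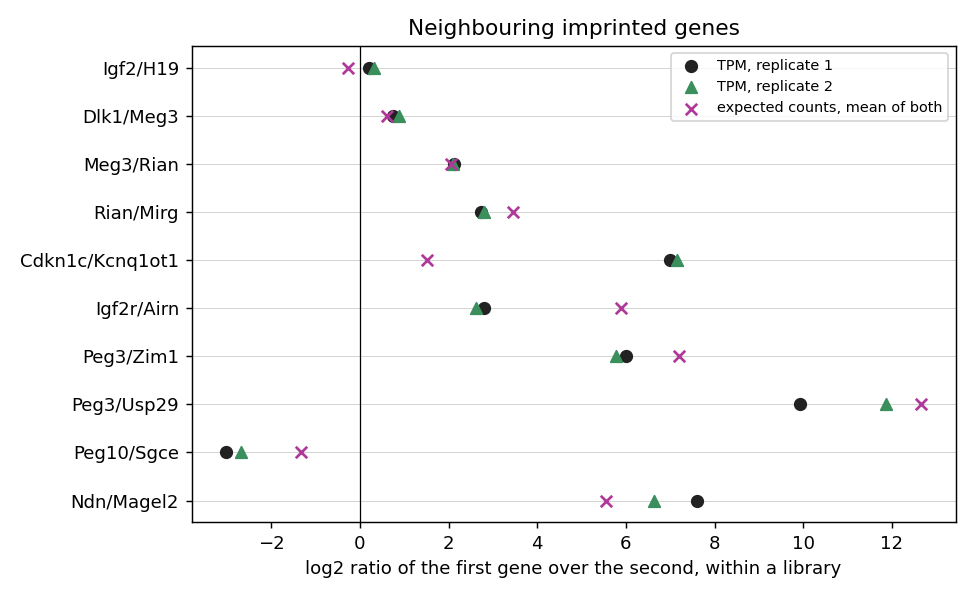
Log2 ratio of the first gene over the second within each library for 10 pairs of neighbouring imprinted genes, with circles for replicate 1 and triangles for replicate 2 by TPM, and crosses for the mean of both by expected counts. By TPM each pair kept its side of 0 in both libraries, and Igf2/H19 is the pair that lies on the other side by counts.

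An order between neighbours was called where the log2 ratio of TPM had the same sign in both libraries and its mean exceeded 3 SD. All 10 pairs that could be measured met this. Where 2 libraries are alike, the SD is small and the rule is easily met. Pairs of other genes were not put to it, so the count is not particular to imprinted neighbours. The smallest was Igf2/H19 at 0.26 ± 0.07 and the next Dlk1/Meg3 at 0.81 ± 0.11 (log2, SD, n = 2). Ratios for Ndn/Magel2 and Peg3/Usp29 rest on the few counts given above.

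The leading transcript was the same in both libraries for 19 of 20 members at 5 TPM or more with several annotated forms, H19 being the exception. In 5 of the 20 it held over 80% of the TPM of the gene in both libraries, and in 9 as the mean of the 2. No share over all genes was set beside these counts, so they describe these members only. The 5 were Igf2r-201 with 97.1% in replicate 1 and 96.8% in replicate 2, Snrpn-201 with 100% and 98.1%, H13-202 with 86.8% and 87.4%, Slc38a4-201 with 83.5% and 85.8%, and the Mest form named above. Peg3-201, Sgce-205, Cdkn1c-201 and Grb10-201 passed as a mean and fell short in 1 library. Cdkn1c-202 held the rest of its gene, 16.0% in replicate 1. Shares moved between the libraries in both leading and minor forms. Sgce-205 held 77.0% in replicate 1 and 90.2% in replicate 2, and Peg3-203, annotated as a target of nonsense-mediated decay, held 4.87% and 16.7%. Nnat was divided between Nnat-202 and Nnat-205, with 56.6% and 35.2% in replicate 1. Plagl1-202 led with 79.3% and 68.5%, Slc22a18-201 with 69.3% and 57.2%, and Trappc9-202 with 75.8% and 66.7%.

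The promoters of the members differed in CpG content. RefSeq windows of 300 bases were found for 29 of the members, 46 windows in all. A CpG ratio, observed over expected, above 0.6 was found in 21 of the 46 (45.7%), against 35.8% of all 32851 windows. Of the 15 windows of 10 genes taken here as having a germline methylated region at a promoter, 4 were above it. Some of these 15 lie at other starts of the same genes, such as the upstream starts of Snrpn and Mest. Gnas was not placed in this group, and its windows had ratios from 0.650 to 0.903, so the count depends on which genes are included. The highest ratio was that of the upstream Grb10 window, 0.973, and the downstream Grb10 window had 0.446. The Igf2 windows at the upstream and downstream starts had 0.0999 and 0.253. The other 2 Igf2 windows had 0.791, at the middle start, and 0.896.

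**Figure D4:**
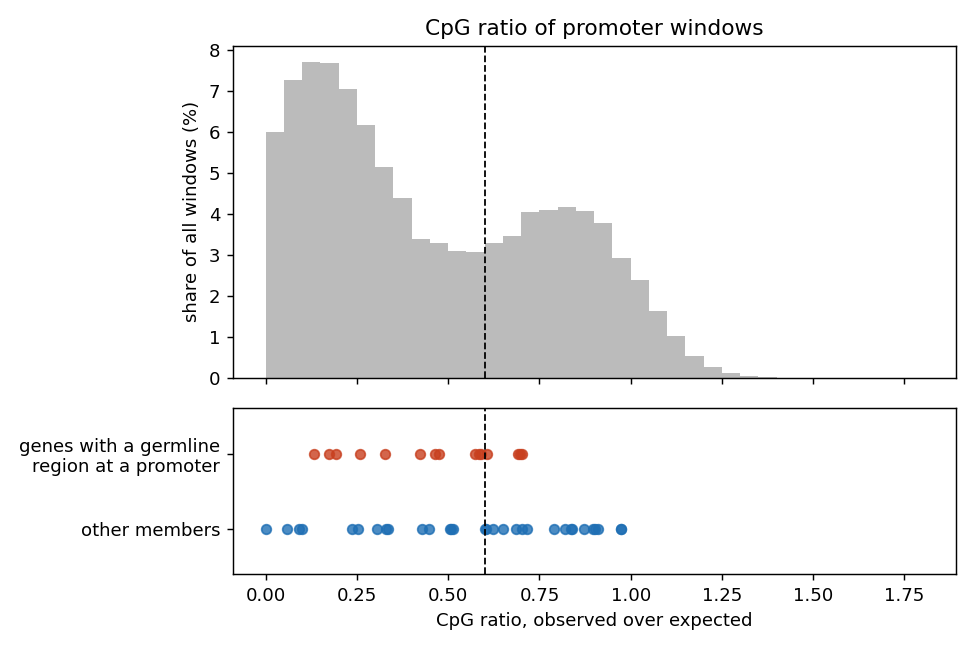
Histogram of the CpG ratio, observed over expected, of all 32851 promoter windows (share per bin of the ratio, %), above points for the 46 windows of imprinted genes, with a dashed line at 0.6. Member windows lie on both sides of the line, and 21 are above it.

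Motifs were counted on both strands of the windows. TGCCGC was present in 10 of the 46 (21.7%), against 11.6% of all windows. Besides both windows at the downstream Mest start, which overlap, it was found in windows of Nnat, Nap1l5, Zim1, Plagl1, Snrpn, Igf2, Grb10 and Meg3. GCCATNTT, the core letters of sites for YY1, was present in 1 window, against 6.05% of all. TATAAA was present in 11 (23.9%), against 13.6%. None of the 3 motifs contains another. Several windows of a gene share sequence, so the windows are not independent. A match describes the letters only.

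The 2 libraries were alike in these genes. Among the 24 members at 5 TPM or more in either library, 0 differed by more than 2-fold, against 0.672% of the 8781 genes at that level, which is 59 genes. The median absolute log2 ratio of TPM + 1 was 0.13 for the members and 0.11 for all those genes. Of the 24, 17 were higher in replicate 1, against 60.8% of all genes at that level, and 7 in replicate 2. The split was 15 and 9 by CPM, TMM scaling or DESeq2 size factors. By TPM the members had a median log2 ratio of -0.10, against -0.04 over all genes. The libraries differed beyond sampling noise over all genes, with a chi-square of 18.0 per degree of freedom over 17602 genes, so they were treated as separate replicates.

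**Figure D5:**
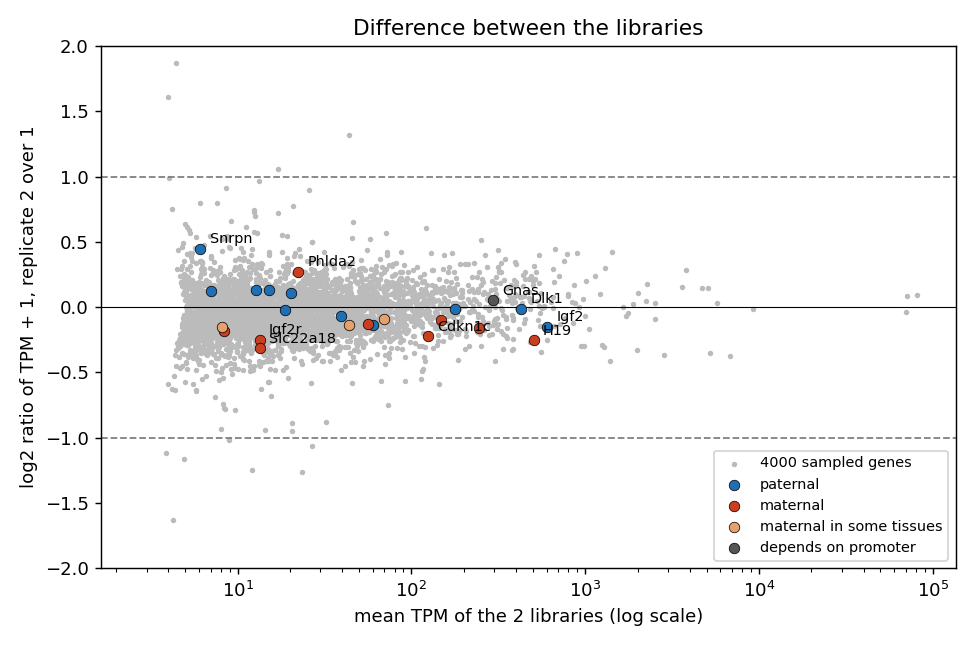
Log2 ratio of TPM + 1, replicate 2 over replicate 1, against the mean TPM on a log axis, for 24 imprinted genes coloured by known allele and 4000 sampled genes in grey, with dashed lines at a 2-fold difference. All 24 lie inside the lines, from -0.31 for Slc22a18 to 0.45 for Snrpn.

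The members at the ends of that range differed by more than counting error. Snrpn had the largest excess in replicate 2, with a CPM 1.49 times that in replicate 1 (95% interval 1.29 to 1.73). Phlda2 was also higher in replicate 2, by 1.26 times (1.12 to 1.43). Slc22a18 was lowest, at 0.819 times (0.735 to 0.912), followed by Igf2r at 0.860 times (0.823 to 0.898) and H19 at 0.861 times (0.847 to 0.875). Over the 24 members, this interval lay above 1 for 8, against 25.2% of the 8781 genes, and below 1 for 11, against 24.4%. It spanned 1 for the other 5. The interval narrows as counts rise, and no allowance was made for the read numbers of the members. The sign of the TPM ratio was the same under all 7 alternative scalings, pseudocounts and filters for 20 members, and it changed for Dlk1, Mest, Plagl1 and Sgce.

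Markers of several cell types differed between the replicates too. The hepatocyte markers summed to 52535 TPM in replicate 1 and 42654 TPM in replicate 2, with 13 of 14 higher in replicate 1. All 8 endothelial markers were higher in replicate 1, with sums of 98.9 and 87.1 TPM, and 11 of 13 stellate and mesenchymal markers were, with sums of 358 and 349 TPM. All 12 muscle markers were higher in replicate 2, and 10 of 12 pancreas markers in replicate 1. Among these Ctrb1 was at 30.1 TPM in replicate 1 and 2.73 TPM in replicate 2. The pancreas marker Pnlip was at 0 counts in both libraries, and no other marker of these lists was. The 11 red cell markers summed to 384811 and 392908 TPM, within 1.02-fold. Over all genes at 5 TPM or more in either library, 60.8% were higher in replicate 1, with a median log2 ratio of -0.044. Markers at that level had medians of -0.23 for hepatocytes, -0.14 for endothelium, -1.70 for pancreas and 0.55 for muscle. The median of stellate and mesenchymal markers was -0.034, so they shifted no more than all genes did. The part of these cell types in the differences between the members was not tested.

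RNA was detected for most genes of the proteins that keep imprints. Of 16 such genes, 14 passed 1 TPM in each library, against 53.1% of all protein-coding genes. Uhrf1, which brings the maintenance methyltransferase to replicated DNA, led at 101 TPM in replicate 1 and 89.5 TPM in replicate 2. Trim28, the corepressor that ZFP57 binds, stood at 83.5 and 70.5 TPM. Ctcf, the insulator protein that separates Igf2 from shared enhancers on the maternal allele, was at 59.6 and 58.0 TPM, and the maintenance methyltransferase Dnmt1 at 44.6 and 43.0 TPM. Zfp57 was the lowest of those detected, at 3.53 and 2.96 TPM. The 2 below 1 TPM act in germ cells or the early embryo: Dppa3 was at 0 in both libraries, and Dnmt3l had 0 counts in replicate 1 and 2 in replicate 2. None of the 12 at 5 TPM or more differed by more than 2-fold.

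Partners of Igf2 and Grb10 were measured as a further list, of which 13 of 14 genes were detected, against 53.1% of all protein-coding genes. The binding proteins Igfbp4 and Igfbp1 led, at 277 TPM in replicate 1 and 225 TPM in replicate 2 and at 266 and 157 TPM. Igfbp7, related to them, followed at 28.4 and 22.5 TPM, and the insulin receptor gene Insr at 23.0 and 18.3 TPM. Igfbp5 was the lowest of those detected, at 1.86 and 2.01 TPM. Of the 14 genes, 11 were higher in replicate 1, against 60.8% of all genes at 5 TPM or more in either library. The list summed to 686 TPM in replicate 1 and 505 TPM in replicate 2, a gap that lay mostly in Igfbp1 and Igfbp4. Igf2 therefore exceeded each of its measured partners per length in both libraries.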

How the data were processed

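Deposited gene and transcript tables of 2 libraries were used. Per the companion description files, they were made on mm10 with annotation M4; the sources used here do not give an aligner or quantifier. The authors' expected counts are estimated reads per gene or transcript, with no scaling. The authors' TPM and posterior mean TPM, deposited with 2 decimals, correct for length and library total. Of these, 97 spike-in entries and 26248 entries with numeric identifiers (under 0.0001% of counts) were left out, and TPM was rescaled to 1000000. Symbols and coordinates came from GENCODE M21 (GRCm38), which named 42462 of 43346 genes.

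The difference between libraries is log2 of (TPM + 1) in replicate 2 over that in replicate 1, for genes at 5 TPM or more in either, without p-values because there is 1 group. Count ratios have exact 95% Clopper-Pearson intervals. Transcript starts within 500 nt were grouped. All members are named; of other lists, up to 4 highest genes, the lowest detected and those differing over 2-fold, not all of which are printed. Members and lists were chosen with earlier results of these data known. Promoters came from RefSeq (GRCm38.p6), with no window used for Sgce, Impact, Peg10, Nap1l4, Trappc9, Rtl1, Kcnq1, H19 or Cdkn1c. Alternatives included TMM scaling (edgeR 4.0.16) and DESeq2 1.42.0 size factors from rounded counts. Computation used Python 3.11.15, pandas 2.3.3, SciPy 1.17.1 and R 4.3.3.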

Additional observations from a re-analysis of the deposited data

How the results depend on the processing

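The count of members at 1 TPM or more, the summed TPM, the count of members over 2-fold and their median absolute difference stayed within 1.5 times, or within the spread, of the values given, under posterior mean TPM, TPM as deposited, limits of 0.5 and 5 TPM, TMM scaling, DESeq2 size factors, a pseudocount of 0.1 and no filter on low values, as far as each applied. The paternal share of 52.5% ± 1.40 (SD, n = 2) was the exception: it was 48.4% by expected counts, 38.6% without Igf2, 47.2% with Gnas counted as maternally expressed and 55.1% without genes that are maternal in some tissues, so whether it lies above 50 depends on these choices. The log2 ratio of Igf2 over H19 turned from 0.26 to -0.27 by expected counts, where length is not corrected. Single libraries gave 29 and 30 members at 1 TPM, and shares of 53.5% and 51.5%; the order of pairs was not called in them, since 1 library gives no SD. Leading transcripts by expected count, an alternative chosen after seeing the data, matched those by TPM in 17 of 20 genes; Igf2, H19 and Mirg differed. The median log2 ratio of all genes at 5 TPM or more ran from -0.05 to 0.01 over the scalings. The setting with no filter kept the pseudocount of 1, so members below 1 TPM in both libraries could not pass 2-fold in it. For them the count of members over 2-fold was fixed in advance. By TPM without a pseudocount, Kcnq1 and Magel2 were higher in replicate 2, by 2.88-fold and 2.16-fold. Dio3 and Usp29 were higher in replicate 1, by 2.34-fold and 4.01-fold. All 4 rest on few counts. No paired analysis was possible because the design has a single group. Genes with fewer than about 10 counts carry too few reads for an order among them.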

Other observations

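Other genes reported as imprinted in mouse, outside the 39 members, were measured as a list of 29 genes. Of these, 16 stood at 1 TPM or more in both libraries, against 28.4% of all genes and 53.1% of all protein-coding genes. The list was thus detected at about the rate of protein-coding genes. Dcn, a matrix proteoglycan of connective tissue cells, led at 51.0 TPM in replicate 1 and 50.9 TPM in replicate 2. Pon2, a lactonase gene beside the Peg10 cluster, followed at 47.9 and 44.4 TPM. Gatm, an enzyme of creatine synthesis, stood at 27.2 and 29.5 TPM, and Ampd3, an AMP deaminase, at 26.0 and 28.6 TPM. Rasgrf1 and Kcnk9, both known from brain, were at 0 counts in both libraries. None of the 12 genes at 5 TPM or more differed by more than 2-fold.

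Hosts and neighbours of the imprinted clusters that are not members were a list of 20 measured genes. Of these, 15 passed 1 TPM in each library, against 28.4% of all genes and 53.1% of all protein-coding genes. After Commd1, the highest were Cd81, a membrane protein gene near the Kcnq1 cluster, at 130.4 and 122 TPM, Tspan32 in the same region at 76.4 and 74.7 TPM, and Tssc4 at 42.7 and 36.7 TPM. Slc22a2, near Igf2r, was at 0 counts in both libraries. Slc22a3, another neighbour of Igf2r, had 67 counts in replicate 1 and 63 in replicate 2.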
